A study of Homo sapiens with 6 samples.

Results

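The transcripts of 10 surface ligands through which a tumor cell inhibits or alerts immune cells were compared between parental and onvansertib-resistant H526 cells. They were chosen by name, for their function as ligands, with earlier results of these data known. They are the T cell checkpoint ligands *CD274* (PD-L1) and *CD276* (B7-H3) and the macrophage checkpoint ligand *CD47*. The others are the NKG2D ligands *MICA*, *MICB*, *ULBP1*, *ULBP2* and *ULBP3*, and the DNAM-1 and TIGIT ligands *PVR* (CD155) and *NECTIN2* (CD112). All 10 were among the 62710 genes of the deposited table, and all 10 were among the 16347 genes whose mean reached 10. H526 is a small cell lung cancer line. The parental cells were untreated H526, and the resistant cells came from H526 cultured in onvansertib, an inhibitor of polo-like kinase 1, raised from 10 to 75 nM over more than a year. The medium of H526 was RPMI-1640, with serum added at 5%. RNA was extracted at 3 separate times, giving 3 libraries per group, numbered 1 to 3 in parental and 7 to 9 in resistant cells. The resistant cells are a single derived population, so that a change under the drug and a change from long culture cannot be told apart, and the p-values measure only the spread between extractions.

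Immune cells read these ligands together. PD-L1 and B7-H3 restrain T cells, and CD47 binds SIRP-alpha on macrophages and holds back engulfment. The MIC and ULBP proteins are stress ligands of NKG2D, an activating receptor of NK cells and of many cytotoxic T cells, and they can be induced by DNA damage, heat shock or oncogenic growth. PVR and nectin-2 bind the activating receptor DNAM-1 as well as the inhibitory receptor TIGIT. Small cell lung cancer is known for little surface MHC class I, the state in which NK cells become relevant. The cultures hold no immune cells, so only the tumor cells' side was measured.

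The values are gene counts that the authors normalized with DESeq2, a relative signal without a unit. The libraries held an estimated 22296503 to 28468262 reads, with the parental libraries the deeper ones. A value of 1 corresponded to about 1 read. Limits from depth cover counting error only. The intervals given with fold changes come from the test described below and reflect the spread between extractions. All 7 tuft cell markers fixed for this line were measured, with a *POU2F3* mean of 25809 in parental and 27273 in resistant cells, which did not pass the test described below. The other 6 did pass, 4 as higher and 2 as lower in resistant cells. *AVIL* fell from 20954 ± 813 to 12018 ± 264 and *TRPM5* rose from 189 ± 39.2 to 643 ± 116 (SD, n = 3), and the part of these shifts in the ligand values was not tested. The neuroendocrine markers summed to between 7029 and 8468 in parental and between 1454 and 1689 in resistant libraries, and the part of this shift in the ligand values was not tested. Of 17 immune cell markers, 10 did not exceed the value of 3 reads in any library, among them *PTPRC*, *CD3D*, *CD3E* and *NKG7*. The sum of all 17, most of it from *CD8A*, *CD4* and *CD14*, lay between 70.9 and 76.9 in parental and between 68.5 and 84.0 in resistant libraries. In bulk RNA, fewer expressing cells and less RNA per cell cannot be told apart.

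Of the 10 ligands, 4 were higher in resistant cells (*ULBP2*, *PVR*, *MICA* and *MICB*), 1 was lower (*NECTIN2*) and 5 did not pass the test. SE denotes the standard error of a log2 fold change. The test was limma on log2(value + 1) over all 16347 genes, with a Benjamini-Hochberg adjusted p under 0.05. Over all genes tested, 37.7% passed in either direction, 17.8% higher and 19.8% lower, so that a called gene was common in this comparison. The balance of directions depended on scaling, with 2917 genes higher and 3244 lower as deposited and 3459 higher and 2740 lower after upper quartile scaling. Parental and resistant values were fully separate in 5 of the 10 ligands, the same 5 that passed, and in 49.9% of all genes. The median log2 fold change of the 10 ligands was 0.25, against 0.00 over all genes, and their median absolute log2 fold change was 0.36, against 0.30. The shifts of the called ligands ranged from 1.26-fold to 1.66-fold upward, and to 0.816-fold downward. The median absolute log2 fold change of all called genes was 0.59.

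**Figure D1:**
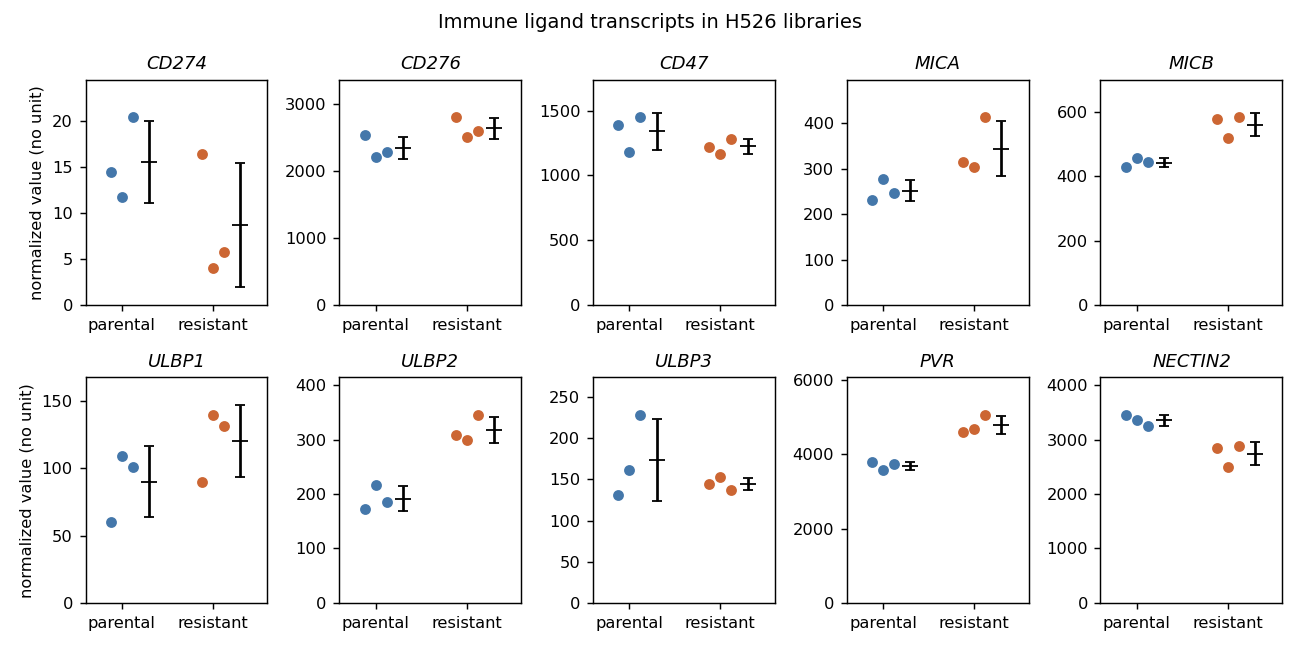
Normalized values (no unit, vertical axes from 0) of the 10 ligands in each parental (blue) and resistant (orange) library, with the mean and SD of 3 libraries in black. The groups stand apart for *MICA*, *MICB*, *ULBP2*, *PVR* and *NECTIN2*, and they overlap for the other 5 ligands.

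*ULBP2* showed the largest rise among the 10 ligands. It encodes a GPI-anchored NKG2D ligand (ENSG00000131015, GRCh38 chromosome 6, 149942014 to 149949235, plus strand) and had values of 172, 216 and 186 in parental libraries 1, 2 and 3 and of 309, 299 and 345 in resistant libraries 7, 8 and 9. Every resistant library was above every parental one. The means were 192 ± 22.7 and 318 ± 24.5 (SD, n = 3 in each group), and the log2 fold change was 0.73 (SE 0.14, limma adjusted p = 0.00252), or 1.66-fold with a 95% interval from 1.34 to 2.06. An exact two-sided permutation test of 3 libraries against 3 cannot go below 0.10, and *ULBP2* and the other 4 called ligands reached that value. Its relative *ULBP3* (chromosome 6, 150061053 to 150069121, minus strand), a ligand of the same kind in the same cluster, did not move with it. The *ULBP3* values of 131, 161 and 228 in parental and 144, 152 and 137 in resistant libraries overlapped, with parental library 3 far above the others. Its log2 fold change was -0.22 (SE 0.21, limma adjusted p = 0.429), with a 95% interval from -0.68 to 0.24, which does not reach the change of *ULBP2*. *ULBP1* (chromosome 6, 149963943 to 149973715, plus strand), which lies between *ULBP2* and *ULBP3*, was at 89.9 ± 26.4 in parental and 120 ± 26.7 in resistant cells (SD, n = 3). Its log2 fold change was 0.44, with an interval from -0.16 to 1.04 (limma adjusted p = 0.232), so that a rise like that of *ULBP2* and no rise were both within its error.

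Members of the ULBP family resemble each other, so shared reads were examined. Of the 1236 windows of 100 bases in the canonical *ULBP2* transcript, 11.9% also occur in *RAET1L* and 1.78% in *RAET1G*. *RAET1L* was listed at 0 in every library and *RAET1G* lay between 2.39 and 6.61. With both rows added to *ULBP2*, its log2 fold change was 0.73 (limma adjusted p = 0.00273). These rows were too small beside *ULBP2* to move it, so how shared reads were divided was not tested by the sum. *ULBP3* shared 4.15% of its windows with other genes and *ULBP1* shared 1.12%, while *MICA*, *MICB*, *CD274*, *CD276*, *CD47* and *NECTIN2* shared 0.

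The promoters of *ULBP2* and *ULBP3* are shown because these close relatives lie in one cluster and differ in their values. The bases run from 250 before to 10 after the start of the RefSeq gene (GRCh38.p14), 5′ to 3′ on the gene's strand. Capitals mark matches on either strand to the motifs searched, which were the ISRE core (GAAA, any 2 bases, GAAA), TTCNNNGAA (GAS), GAANNTTC (heat shock element core), TGACGTCA (CRE), TGANTCA (AP-1), CACGTG (E-box), TTTGGCGC and TTTCGCGC (E2F). Matches to GGGCGG (GC box) were counted but left in lower case. *ULBP2* lies at chr6:149941764-149942023 on the plus strand and *ULBP3* at chr6:150069112-150069371 on the minus strand.
ULBP2: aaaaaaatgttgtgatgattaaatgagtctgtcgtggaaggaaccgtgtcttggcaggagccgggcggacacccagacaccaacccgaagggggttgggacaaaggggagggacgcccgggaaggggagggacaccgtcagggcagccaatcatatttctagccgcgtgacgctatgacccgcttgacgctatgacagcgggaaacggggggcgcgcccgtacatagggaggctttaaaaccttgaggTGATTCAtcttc
ULBP3: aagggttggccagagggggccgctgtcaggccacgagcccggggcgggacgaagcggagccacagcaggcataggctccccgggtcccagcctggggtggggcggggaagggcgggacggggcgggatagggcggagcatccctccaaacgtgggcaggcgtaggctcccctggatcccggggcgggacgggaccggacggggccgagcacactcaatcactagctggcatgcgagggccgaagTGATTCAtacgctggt
Each of them holds 1 AP-1 match at the gene start, which 7.71% of all 35116 promoters of 300 bases hold. *ULBP3* has 6 GC boxes in 300 bases and *ULBP2* has 1. Of the other ligands, *CD47* also has 6 and a *CD276* promoter has 7. At least 1 is held by 45.0% of all promoters, and the share that holds as many as *ULBP3* was not counted. Aligned end to end, the 300 base promoters were 49.1% identical. A match describes the sequence and is not a measured binding site.

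*MICA* and *MICB*, the MHC-encoded NKG2D ligands, rose by similar amounts. *MICB* (ENSG00000204516, chromosome 6, 31494881 to 31511124, plus strand) had values of 428, 456 and 442 in parental and of 578, 519 and 582 in resistant libraries, with no overlap. Its mean went from 442 ± 14.0 to 560.1 ± 35.3 (SD, n = 3), on the log2 scale a change of 0.34 (SE 0.10, limma adjusted p = 0.0221). *MICA* (ENSG00000204520, chromosome 6, 31399784 to 31415315, plus strand) was at 231, 277 and 247 in parental and at 314, 303 and 413 in resistant libraries. The highest of these values, in resistant library 9, stood well above the other resistant libraries, though the groups did not overlap without it either. The log2 fold change of *MICA* was 0.44 (SE 0.15, limma adjusted p = 0.0436). Both calls lay close to the threshold. Without parental library 1, parental library 3, resistant library 7 or resistant library 9, the adjusted p by limma was 0.117, 0.105, 0.0580 and 0.163 for *MICA* and 0.0521, 0.0603, 0.0719 and 0.0741 for *MICB*, with log2 fold changes no lower than 0.30 and 0.31. Within a library, *MICA* held 0.54 to 0.61 times the value of *MICB* in parental and 0.54 to 0.71 times in resistant cells, and the log2 ratio differed by 0.10 between the groups (exact two-sided permutation p = 0.60, adjusted p = 0.60 over 4 ratios).

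The promoters of *MICA* (chr6:31403345-31403604) and *MICB* (chr6:31497895-31498154), both on the plus strand, are shown since this pair rose together, in the same form and with the same capitals as above.
MICA: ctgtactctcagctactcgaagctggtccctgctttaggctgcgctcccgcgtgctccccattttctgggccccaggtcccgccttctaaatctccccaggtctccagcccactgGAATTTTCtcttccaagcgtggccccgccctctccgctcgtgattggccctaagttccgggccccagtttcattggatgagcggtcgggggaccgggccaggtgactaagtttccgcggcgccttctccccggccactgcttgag
MICB: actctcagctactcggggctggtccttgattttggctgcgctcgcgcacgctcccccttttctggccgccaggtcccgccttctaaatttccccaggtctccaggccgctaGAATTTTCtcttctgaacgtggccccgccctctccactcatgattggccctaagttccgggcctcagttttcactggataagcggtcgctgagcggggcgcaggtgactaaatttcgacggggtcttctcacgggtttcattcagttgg
Each holds 1 match to the heat shock element core, at position 116 in *MICA* and 112 in *MICB* counted from the first base shown, and 6.77% of all promoters hold 1 or more. Over 300 bases the promoters of the pair were 77.8% identical, above every other pair of NKG2D ligand promoters, whose identity was 49.1% at most. The RefSeq starts used here lie inside the longer gene models of Gencode for both genes.

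The NKG2D ligands can be added per length to show their joint level. Divided by the length of the canonical transcript, the summed value per kilobase of the 5 ligands was 535, 639 and 608 in parental libraries and 774, 752 and 886 in resistant libraries. *MICA* made up 30.9% ± 1.10 of the parental and 31.0% ± 2.60 of the resistant sum, and *MICB* 31.0% ± 1.91 and 28.9% ± 1.88. The share of *ULBP2* was 24.1% ± 1.21 in parental and 29.6% ± 0.357 in resistant cells, and that of *ULBP3* was 9.34% ± 2.36 and 5.82% ± 0.781 (SD, n = 3 in each). Neither share overlapped between the groups, and the highest *ULBP3* share, 12.1%, was that of parental library 3. *ULBP1* held 4.65% ± 1.02 and 4.67% ± 1.08. The sum and the shares are descriptions without a test, and they depend on the transcript length. With the union of all exons as the length, the share of *MICA* was 14.5% ± 0.666 in parental and 14.5% ± 1.52 in resistant cells, that of *ULBP2* was 31.8% ± 1.84 and 38.9% ± 0.346, and the sum was 450.6 ± 42.5 and 611.0 ± 42.1 (SD, n = 3 in each). The other NKG2D ligands of the human genome hardly contributed. *RAET1E*, *RAET1G* and *RAET1L* all fell under the minimum mean of 10 and were not tested.

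**Figure D2:**
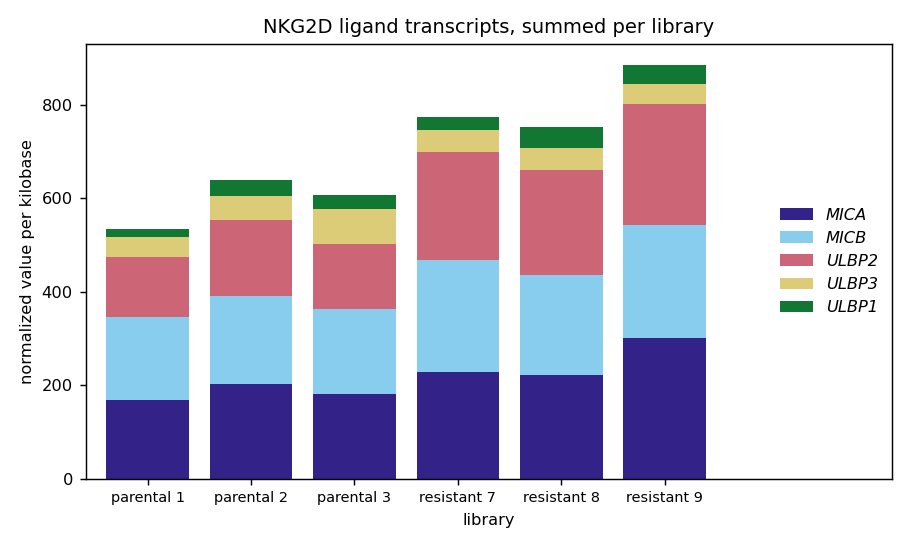
Normalized value per kilobase of canonical transcript (vertical axis, from 0) of the 5 NKG2D ligands, stacked for each of the 6 libraries. The stacks reach 535 to 639 in parental and 752 to 886 in resistant libraries, and *MICA*, *MICB* and *ULBP2* fill most of each.

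*PVR* and *NECTIN2*, which share receptors and lie near each other on chromosome 19, changed in opposite directions. *PVR* (ENSG00000073008, chromosome 19, 44643798 to 44666162, plus strand) binds DNAM-1, TIGIT and CD96, and had values of 3779.6, 3561 and 3724 in parental and of 4593, 4684 and 5053 in resistant libraries. All resistant libraries lay above all parental ones. Its log2 fold change was 0.37 (SE 0.06, limma adjusted p = 0.00125), or 1.29-fold with an interval from 1.17 to 1.43. *NECTIN2* (ENSG00000130202, chromosome 19, 44846175 to 44889223, plus strand), a weaker ligand of TIGIT and a ligand of PVRIG, had values of 3451, 3364 and 3249.9 in parental and of 2852, 2502 and 2876 in resistant libraries. Here all resistant libraries were the lower ones, and resistant library 8 was the lowest. The log2 fold change was -0.29 (SE 0.07, limma adjusted p = 0.00996), or 0.816-fold with an interval from 0.730 to 0.913. The ratio of *PVR* to *NECTIN2* within a library, which no scaling of libraries can alter, was 1.10, 1.06 and 1.15 in parental and 1.61, 1.87 and 1.76 in resistant cells. On the log2 scale it rose from 0.14 ± 0.06 to 0.80 ± 0.11 (SD, n = 3), with the smallest p that the exact permutation test allows, 0.10, and an adjusted p of 0.40 over 4 ratios. The genes next to this pair did not shift as a block. The 50 nearest tested genes had a median log2 fold change of 0.03 around *PVR* and of 0.04 around *NECTIN2*.

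The *PVR* row needs a remark on overlap. Of 5693 windows in its canonical transcript, 33.9% also belong to an unclassified gene on the same strand (ENSG00000279095), which was listed at 0 in every library, and 0.404% belong to *CEACAM19*, which lay between 196 and 344. With both rows added, the log2 fold change of *PVR* was 0.38 (limma adjusted p = 0.00111). The unclassified gene, listed at 0, added nothing to this sum, so how reads of its windows were divided was not tested. In the promoter table, *NECTIN2* holds 1 CRE match, a motif found in 1.85% of promoters, and *PVR* held none of the motifs searched.

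The checkpoint ligands did not pass the test. *CD274* encodes PD-L1, the ligand of PD-1 on T cells (ENSG00000120217, chromosome 9, 5450503 to 5470566, plus strand), and was scarcely expressed. Its values were 14.4, 11.7 and 20.4 in parental and 16.4, 4.0 and 5.72 in resistant libraries, equal to about 3.84 to 20.8 reads. Resistant library 7 lay among the parental libraries and the other two below them. The log2 fold change of -0.95 (SE 0.54, limma adjusted p = 0.198) had an interval from -2.15 to 0.26, so that no difference was detectable at this depth. *PDCD1LG2*, which encodes PD-L2, the other ligand of PD-1, was listed at 0 in all 6 libraries. Only 2.56% of the genes tested had a lower mean than *CD274*.

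The promoter of *CD274* (chr9:5450292-5450551, plus strand) is shown for its interferon motifs, since the transcript stayed near its floor, in the same form as above.
CD274: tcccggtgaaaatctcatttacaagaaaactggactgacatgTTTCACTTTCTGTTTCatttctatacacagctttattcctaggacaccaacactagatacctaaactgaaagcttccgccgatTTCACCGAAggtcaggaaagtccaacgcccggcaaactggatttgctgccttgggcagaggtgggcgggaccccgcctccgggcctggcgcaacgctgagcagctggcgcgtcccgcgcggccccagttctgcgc
It holds 2 overlapping matches to the ISRE core, which 3.57% of promoters hold, and 1 GAS match, which 7.66% hold. No other ligand of the 10 had a match to either motif in its 300 bases.

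*CD276* and *CD47* were abundant and close to level. *CD276* (chromosome 15, 73683966 to 73714514, plus strand) was at 2349.6 ± 169.7 in parental and 2641 ± 153 in resistant cells (SD, n = 3), with overlapping libraries and a log2 fold change of 0.17 (interval from 0.00 to 0.34, adjusted p = 0.107 by limma). It sits in a stretch of chromosome 15 in which 44 of the 50 nearest tested genes were higher in resistant cells, with a median log2 fold change of 0.38. Relative to these neighbors the value of *CD276* was -0.21 (limma adjusted p = 0.0530). Upper quartile scaling, quantile normalization and leaving out parental library 1 brought it past the threshold as higher, with adjusted p of 0.0289, 0.0370 and 0.0433 by limma. *CD47* (chromosome 3, 108043091 to 108091862, minus strand) was at 1339 ± 140.4 and 1224 ± 56.8 (SD, n = 3). Its log2 fold change was -0.12 with an interval from -0.33 to 0.08 (limma adjusted p = 0.318), which leaves no room for a doubling or a halving of the transcript. Its ratio to *CALR*, which encodes calreticulin, a signal for engulfment when at the surface, differed by 0.08 on the log2 scale (exact permutation p = 0.60). The ratio of *CD274* to *CD276* differed by -1.12 (exact permutation p = 0.30), with overlapping groups.

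**Figure D3:**
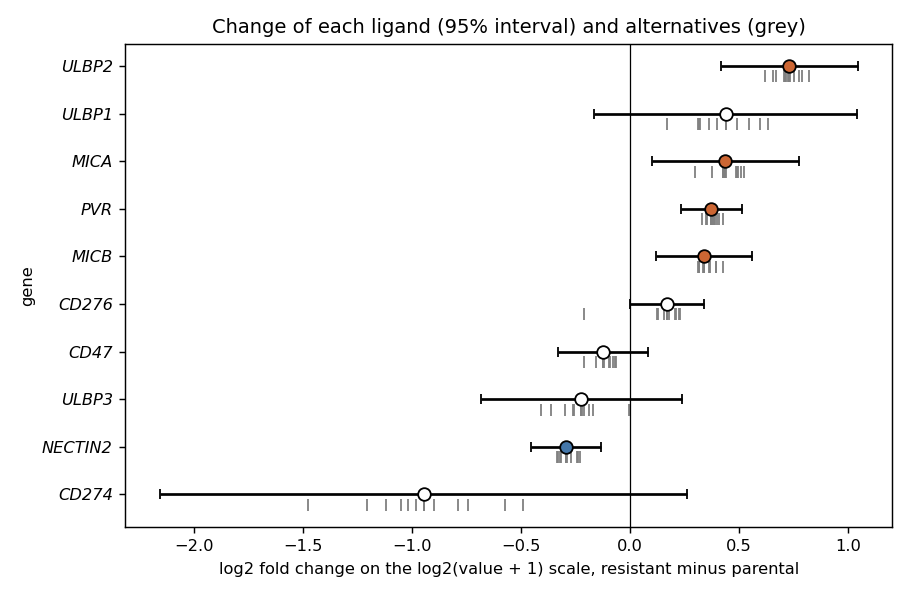
Log2 fold change of each ligand on the log2(value + 1) scale, resistant minus parental (horizontal axis), with its 95% interval by limma. Filled points passed the test, orange for higher and blue for lower, and grey ticks give the same value under each alternative processing. *CD276* alone crosses 0, to -0.21, when its chromosomal neighbors are subtracted.

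Per kilobase of canonical transcript the order of levels was led by *NECTIN2* in both groups, at 1247 ± 37.4 in parental and 1019.8 ± 77.8 in resistant cells (SD, n = 3). In parental cells *CD276* at 713 ± 51.5, *PVR* at 637 ± 19.6 and *CD47* at 253 ± 26.5 came next. *MICA* at 184 ± 17.1 and *MICB* at 183 ± 5.81 followed with overlapping ranges, and then *ULBP2* at 143 ± 17.0, *ULBP3* at 55.7 ± 16.0, *ULBP1* at 28.0 ± 8.22 and *CD274* at 4.26 ± 1.22. In resistant cells *PVR* at 825 ± 42.0 and *CD276* at 801 ± 46.3 overlapped in their ranges. *MICA*, *ULBP2*, *MICB* and *CD47*, at 250.4 ± 44.1, 238 ± 18.4, 232 ± 14.6 and 231 ± 10.7, could not be put in order, each overlapping the next. *ULBP3*, *ULBP1* and *CD274* again came last, without overlapping ranges. This order depends on the transcript length. With the longest transcript or the union of exons, *PVR*, *CD276*, *MICA*, *ULBP2*, *MICB* and *CD47* took other places in resistant cells, and *MICA*, *MICB* and *ULBP2* did in parental cells. *ULBP2* overlapped *CD47* in resistant cells with the canonical length and lay above it without overlap with either other length.

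Around these ligands, 75 further genes that act on the same immune receptors or on the ligands themselves were listed, apart from *RAET1E*, *RAET1G* and *RAET1L*. Over all 6 lists 59 genes were tested, of which 19 rose and 10 fell. These counts stand beside the 17.8% and 19.8% of all genes, and the lists were chosen with results of these data known. The 19 include *ICAM1* and *TNFRSF14*, which reached the minimum mean of 10 only through their resistant libraries. For these genes the filter itself favored a rise. Among 12 other B7 and butyrophilin genes, 8 were tested, with 3 higher and 1 lower and a median log2 fold change of 0.57. *VTCN1*, which did not pass, also reached the minimum mean only through its resistant libraries, mostly through library 9, at 31.9. Its means were 5.81 in parental and 14.8 in resistant cells, and it entered this median at 0.77. *ICOSLG*, the ligand of the T cell costimulator ICOS, rose from 239 ± 67.8 to 814 ± 54.4 (SD, n = 3), on the log2 scale a change of 1.80 (limma adjusted p = 3.92e-05). *BTN3A3* and *BTN3A2*, butyrophilins of the group recognized by gamma delta T cells, had log2 fold changes of 1.24 and 0.65. *BTN3A1*, of the same group and named after its value was seen, had one of 0.49 and did not pass (limma adjusted p = 0.0517). *BTN2A1*, of the same pathway, had one of -0.30 (limma adjusted p = 0.0222), and this call was lost without parental library 3, resistant library 7 or resistant library 9 (adjusted p = 0.0832, 0.0539 and 0.0704 by limma). *CD80* was listed at 0 in all libraries.

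The list of other ligands of inhibitory receptors had the highest median log2 fold change of the 5 lists with tested genes, 0.94. Of its 14 genes, 10 were tested, 7 of them higher and 2 lower. Of the 7, *TNFRSF14* reached the minimum mean only through its resistant libraries. *TNFRSF14*, the ligand of BTLA, rose from 5.25 ± 2.76 to 22.0 ± 6.38, near the limit of these libraries, and without resistant library 8 its adjusted p was 0.0527 by limma. *NECTIN4*, which binds TIGIT, rose from 133 ± 36.6 to 331 ± 25.2, and *CEACAM1*, which binds itself on T and NK cells, from 588 ± 93.8 to 1299 ± 95 (SD, n = 3). *HLA-E*, the ligand of the NK receptor NKG2A, named after its value was seen, rose from 324 ± 39.8 to 576 ± 57.6, a log2 fold change of 0.83 (limma adjusted p = 0.000642). In the other direction *CD200*, an inhibitor of myeloid cells, fell from 117 ± 33.4 to 23.2 ± 5.71, a log2 fold change of -2.28 (limma adjusted p = 0.000213). *CD24*, the ligand of Siglec-10 and like *CD47* a signal against engulfment, fell from 5299.9 ± 828 to 3958 ± 261 (SD, n = 3), and its call was lost without the intensity trend (limma adjusted p = 0.0615).

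Among 17 other ligands and receptors that activate or hold NK and T cells, 11 were tested, with 5 higher, 2 lower and a median log2 fold change of 0.62. Of the 5, *ICAM1* reached the minimum mean only through its resistant libraries. *NCR3LG1*, which encodes B7-H6, the ligand of NKp30 on NK cells, had values of 1066, 1197 and 1121 in parental and of 2174, 2288 and 1981 in resistant libraries. Its log2 fold change was 0.93 (SE 0.08, limma adjusted p = 2.02e-05). *ICAM1*, the ligand of LFA-1 in the immune synapse, did not exceed the value of 3 reads in any parental library and reached 25.2, 19.6 and 67.4 in resistant libraries, at least 13.2-fold higher than that limit averaged over the parental group. Resistant library 9 carried much of this, and without it the bound was 7.88-fold and the mean over the remaining libraries fell under the minimum for testing. *TNFSF9*, the 4-1BB ligand, rose from 94.2 ± 9.02 to 173 ± 13.7 (SD, n = 3). *CADM1*, the ligand of CRTAM, fell from 10357 ± 631 to 7542 ± 523. *BAG6*, another ligand of NKp30, had a log2 fold change of -0.20 (limma adjusted p = 0.0155), with adjusted p of 0.0775 without parental library 3 and of 0.349 with quantile normalization.

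Of 12 genes that act on the ligands after transcription 11 were tested, with 1 higher and 1 lower and a median log2 fold change of 0.01. *ADAM17*, a protease that sheds MIC and ULBP proteins, fell from 1543 ± 54.7 to 1259 ± 53.4 (SD, n = 3), on the log2 scale a change of -0.29 (limma adjusted p = 0.0103). *THBS1*, which encodes thrombospondin-1, a ligand of CD47, rose from 72.0 ± 17.2 to 258 ± 43.1, a log2 fold change of 1.84. *CALR* had a log2 fold change of -0.20 (limma adjusted p = 0.0840). Of 20 regulators of ligand transcription 19 were tested, with 3 higher, 4 lower and a median of 0.04. *IRF1*, the main interferon regulator of *CD274*, was at 121, 177 and 124 in parental and at 224, 643 and 570 in resistant libraries, so that resistant library 7 stood apart from the other two, as it did for *CD274* in the opposite sense. *IRF2* and *HIF1A* had log2 fold changes of 0.73 and 0.44. The stress factors *DDIT3* and *ATF4* fell, by 1.14 and 0.42 on the log2 scale, and *SP1*, which binds GC boxes, fell by 0.52.

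**Figure D4:**
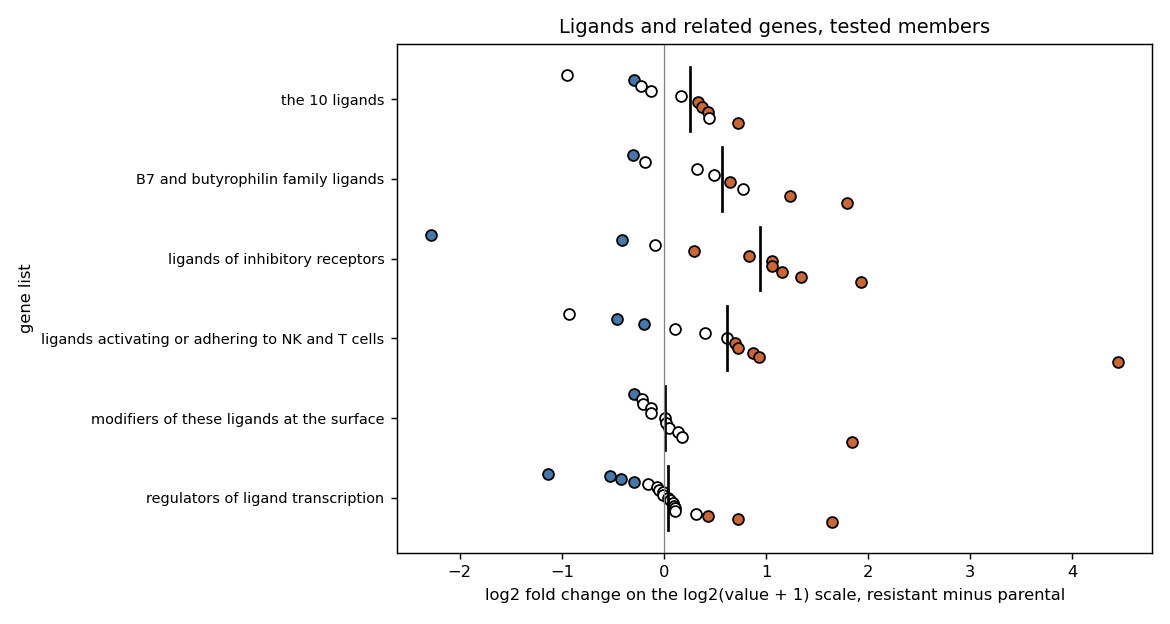
Log2 fold change on the log2(value + 1) scale, resistant minus parental (horizontal axis), of the tested genes of the 10 ligands and of 5 lists of related genes (vertical axis). Orange points were higher and blue points lower at an adjusted p under 0.05, open points did not pass, and black bars are medians, which lie at 0.94 for ligands of inhibitory receptors and at 0.01 for surface modifiers.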

How the data were processed

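RNA-seq of 3 parental and 3 resistant H526 libraries was used. The authors trimmed reads with Trimmomatic 0.38, aligned and quantified them with RSEM 1.3.1 on GRCh38 with the Gencode v43 annotation, and deposited gene counts normalized with DESeq2, here taken as a signal that is never negative. Whole reads could not be recovered, since only 32.8% to 59.3% of values under 10 lay within 0.02 of a whole multiple of the value of 1 read, so the DESeq2 Wald test of the study could not be repeated and no count test was run. Counting by strand is not given in the sources used here, and exons of *MICA*, *MICB*, *NECTIN2* and *PVR* overlap other genes by 55 to 2028 bases.

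Of 62757 rows, 47 second copies of pseudoautosomal genes were left out. Symbols and positions came from Gencode v44, matched without version for 62639 of 62710 rows. limma 3.58.1 (R 4.3.3) was applied to log2(value + 1) of genes with a mean of at least 10, using an intensity trend and condition as the only term. Single values got an exact permutation test. Of 200 genes changed in simulated libraries of 16347 genes, 174 were recovered. This count pools all 200 genes, and recovery at the size of the ligand shifts was not tested. Levels per kilobase used the Ensembl canonical transcript, and promoters came from RefSeq (GRCh38.p14), where all 10 symbols were found. A table of proteins was not used here, so shared transcript windows of 100 bases took the place of protein identity. The genes named are the 10 ligands and, of each list, up to 3 per direction with the largest called change and no overlap. *HLA-E*, *BTN3A1* and *VTCN1* were named in addition, after their values were seen. The members and lists were chosen with earlier results of these data known. Alternatives were other pseudocounts (0.1 and 10), filters (none and 50), scalings, no trend, leaving out each library, centring on 50 neighboring genes and, added after the data were seen, the sum with overlapping genes, the summed NKG2D ligands with other transcript lengths and the *ICAM1* bound without each resistant library. Python 3.11.15 was used otherwise. Values of some listed genes are not reported here.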

Additional observations from a re-analysis of the deposited data

How the results depend on the processing

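Over 149 combinations of a ligand and an alternative, 135 kept direction and side of the threshold, and 7 of the 10 ligands kept both throughout, *ULBP2*, *PVR* and *NECTIN2* as called. *CD274* could not be tested at a minimum mean of 50. The number of ligands higher in resistant cells lay between 2 and 4 when single libraries were left out, being 2 without parental library 3, resistant library 7 or resistant library 9, where *MICA* and *MICB* were lost. *MICA* was also lost without a filter and without the trend (adjusted p = 0.0581 and 0.0726 by limma). *CD276* reversed only with local centring, to -0.21. The difference of the *MICA* to *MICB* log2 ratio lay between -0.012 and 0.18 over the libraries left out, reversing without resistant library 9. In the order per kilobase, 4 of 10 resistant places stayed with the longest transcript and 4 with the union of exons, against 7 in parental cells with either. Over all genes 6161 passed, between 4784 (without resistant library 8) and 6228 under the alternatives. Upper quartile scaling moved the median of all log2 fold changes by 0.06. Of 30 other genes followed, 23 kept direction and call in every alternative, and the called genes that lost a call somewhere were *BAG6*, *BTN2A1*, *CD24*, *CLEC2D*, *NECTIN1* and *TNFRSF14*. No paired analysis was possible because the groups share no replicate numbers. The paper calls the parental and resistant cells matched, but a pairing by extraction cannot be recovered from the labels. If there was such a pairing, the unpaired fit did not use it. At this depth *CD274* lay at few reads in every library, and *ICAM1* did not exceed 3 reads in parental cells, so that its log2 fold change ran from 2.03 to 6.18 with the pseudocount. Genes under the minimum mean, among them *RAET1E*, *RAET1G* and *RAET1L*, could not be tested.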
